A study of Mus musculus with 40 samples.

Results

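Glucose uptake, glycolysis and the hypoxia response are covered by 36 mouse genes, picked by symbol from the 45706 genes of the expression tables: 9 for glucose entry and its phosphorylation, 2 bifunctional regulators of that step, 9 for the steps from aldolase to pyruvate kinase, 3 for pyruvate and lactate handling, 4 subunits or prolyl hydroxylases of the hypoxia-inducible factor (HIF), and 9 HIF targets. They were read in 40 RNA-seq libraries of sorted mouse cells, 4 in each of 10 groups. Neutrophils and Ly6C-high monocytes were sorted from colon tumors and blood of Cdx2CreERT2 - Apc fl/fl mice on a C57Bl6/Sv129 background, and from blood of healthy C57Bl6 mice. Epithelial cells (EpCAM+ CD45-) and stromal cells (EpCAM- CD45-) came from tumors and from healthy colon. Tumor-bearing mice had received a single intraperitoneal dose of tamoxifen, 25 mg/kg, at 8 to 10 weeks of age, while the healthy mice carried no transgene and received no agent, so tumor, genotype, strain and tamoxifen cannot be told apart where the 2 kinds of mice are compared. The Cdx2 promoter drives Cre in the intestinal epithelium, so the sorted myeloid and stromal cells are not its target. The titles of 1 library of circulating neutrophils from tumor-bearing mice and of 3 libraries of healthy blood monocytes join 2 animal numbers, which marks pooled animals.

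Glycolysis splits glucose into pyruvate and yields ATP without oxygen when pyruvate is turned into lactate. HIF is a dimer of an oxygen-labile alpha subunit, encoded by Hif1a or Epas1, and a stable partner; prolyl hydroxylases of the Egln family use oxygen to mark the alpha subunit for degradation, so HIF builds up and switches on its targets when oxygen is scarce. Neutrophils are known for living mainly on glycolysis, and colon epithelium for a steep oxygen gradient towards the gut lumen.

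The core letters of the HIF binding motif, ACGTG, were searched on both strands (CACGT on the strand shown is ACGTG on the other) in a window (GRCm38.p6) that lies mostly upstream of the first transcription start RefSeq lists for each gene and reaches a little past it. That start can differ from the outermost gene end in other annotation. The windows of Slc16a3, Hif1a, Ldha, Gapdh, Ankrd37, Aldoa and Pfkl lie inside the GENCODE gene. Those of Pfkfb3, Pkm, Tpi1 and others partly do. Of 31 members with a window, 19 (61.3%) held at least 1 copy, and 19.7% of the 27025 windows of all genes did. With every listed start of a gene searched, 22 of the 31 members and 21.8% of all genes held the motif, Hk1, Aldoa and Pkm being added. The members' windows were also richer in G and C, with a median of 64.7% against 52.7%, and with GCGTG allowed as well the shares were 80.6% and 43.8%. A match is only a description of the letters. The 6 windows printed here belong to genes that rose in tumor neutrophils, in tumor monocytes and in tumor epithelium or, for Hk2, in both myeloid comparisons, and were chosen after these values were seen. They run 5′ to 3′ on the gene's strand with the motif in capitals, and in Bnip3 the capitals CACGTG hold the motif on both strands.
Slc2a1 (chr4:119108495-119108794, plus strand): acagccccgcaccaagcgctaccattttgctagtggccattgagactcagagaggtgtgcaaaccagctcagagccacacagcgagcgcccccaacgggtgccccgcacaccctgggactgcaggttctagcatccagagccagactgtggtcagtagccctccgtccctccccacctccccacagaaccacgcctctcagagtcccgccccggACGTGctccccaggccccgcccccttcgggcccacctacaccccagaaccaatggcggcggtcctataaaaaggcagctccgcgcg
Hk2 (chr6:82774405-82774704, minus strand): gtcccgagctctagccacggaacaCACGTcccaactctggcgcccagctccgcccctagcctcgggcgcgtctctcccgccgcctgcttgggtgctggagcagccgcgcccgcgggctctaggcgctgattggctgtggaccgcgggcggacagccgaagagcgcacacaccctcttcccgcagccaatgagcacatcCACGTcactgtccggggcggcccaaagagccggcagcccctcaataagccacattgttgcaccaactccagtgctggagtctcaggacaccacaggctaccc
Pfkfb3 (chr2:11553880-11554179, minus strand): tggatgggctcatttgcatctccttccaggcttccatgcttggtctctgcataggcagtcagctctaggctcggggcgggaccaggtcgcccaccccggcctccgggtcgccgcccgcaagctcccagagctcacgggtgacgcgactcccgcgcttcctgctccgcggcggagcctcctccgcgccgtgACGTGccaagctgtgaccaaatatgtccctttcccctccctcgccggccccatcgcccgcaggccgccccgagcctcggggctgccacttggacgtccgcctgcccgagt
Slc16a3 (chr11:120948817-120949116, plus strand): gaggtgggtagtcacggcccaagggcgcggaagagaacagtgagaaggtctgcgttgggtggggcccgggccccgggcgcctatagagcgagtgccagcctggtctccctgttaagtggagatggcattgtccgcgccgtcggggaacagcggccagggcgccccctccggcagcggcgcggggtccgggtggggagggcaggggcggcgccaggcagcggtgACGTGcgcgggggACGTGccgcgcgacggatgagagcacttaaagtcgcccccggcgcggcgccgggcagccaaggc
Egln3 (chr12:54203825-54204124, minus strand): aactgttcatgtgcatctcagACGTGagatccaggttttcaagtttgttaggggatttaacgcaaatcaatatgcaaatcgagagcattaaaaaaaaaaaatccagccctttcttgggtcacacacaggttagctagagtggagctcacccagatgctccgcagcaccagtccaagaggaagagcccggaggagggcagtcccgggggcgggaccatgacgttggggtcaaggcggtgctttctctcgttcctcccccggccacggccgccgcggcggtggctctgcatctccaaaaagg
Bnip3 (chr7:138909457-138909756, minus strand): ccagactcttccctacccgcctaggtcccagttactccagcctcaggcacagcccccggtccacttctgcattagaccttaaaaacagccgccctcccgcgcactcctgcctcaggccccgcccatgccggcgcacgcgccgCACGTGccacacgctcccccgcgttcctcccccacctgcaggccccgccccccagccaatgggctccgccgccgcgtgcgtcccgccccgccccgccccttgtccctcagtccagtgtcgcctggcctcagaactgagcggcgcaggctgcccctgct
Of the 12 members that rose in both myeloid comparisons, 11 had a window and 9 of these held ACGTG, and of the other 24 members 20 had a window and 10 held it, or 13 with every listed start.

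Library totals ran from 10717873 to 38002939 counts, and the share of counts on mitochondrial genes from 5.34% to 83.9%, the highest in replicate 4 of the healthy epithelium. Levels are RPKM, read counts scaled to transcript length and to the mapped reads of the library. Of the 36 members, 4 shared most of their 50-base stretches with another gene, Gapdh (82.5%), Eno1 (72.2%), Pgk1 (68.0%) and Bnip3 (62.4%), while 23 shared under 10%. The highest Gapdh level in any library was 3.89 RPKM and that of Ldha 0.832 RPKM. The translation genes Eef1a1, Rplp0 and Rpl13a had medians of 0.64, 0.142 and 1.27 RPKM over all libraries, and B2m 750 RPKM. A low RPKM of Ldha or of the genes from aldolase to pyruvate kinase is therefore not read as low expression. The reason for these low values was not tested. Levels are set side by side between genes only for members that share under 10%. Where a member overlaps a gene on the other strand, the reads of the 2 cannot be told apart. The strand used in counting is not given in the sources used here. Among members that rose in both myeloid comparisons, this holds for Slc2a1, Hk2, Pfkfb3, Bnip3, Hif1a and Pfkp. It also holds for Hk1, Hk3, Gpi1, Pfkm, Aldoa, Tpi1, Gapdh, Ndrg1, Adm, Ankrd37 and Car9. Ero1l, Egln3, Slc16a3, P4ha1, Ddit4 and Pfkl overlap no annotated gene. In these bulk libraries, fewer cells of a type and less RNA per cell cannot be told apart.

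**Figure D1:**
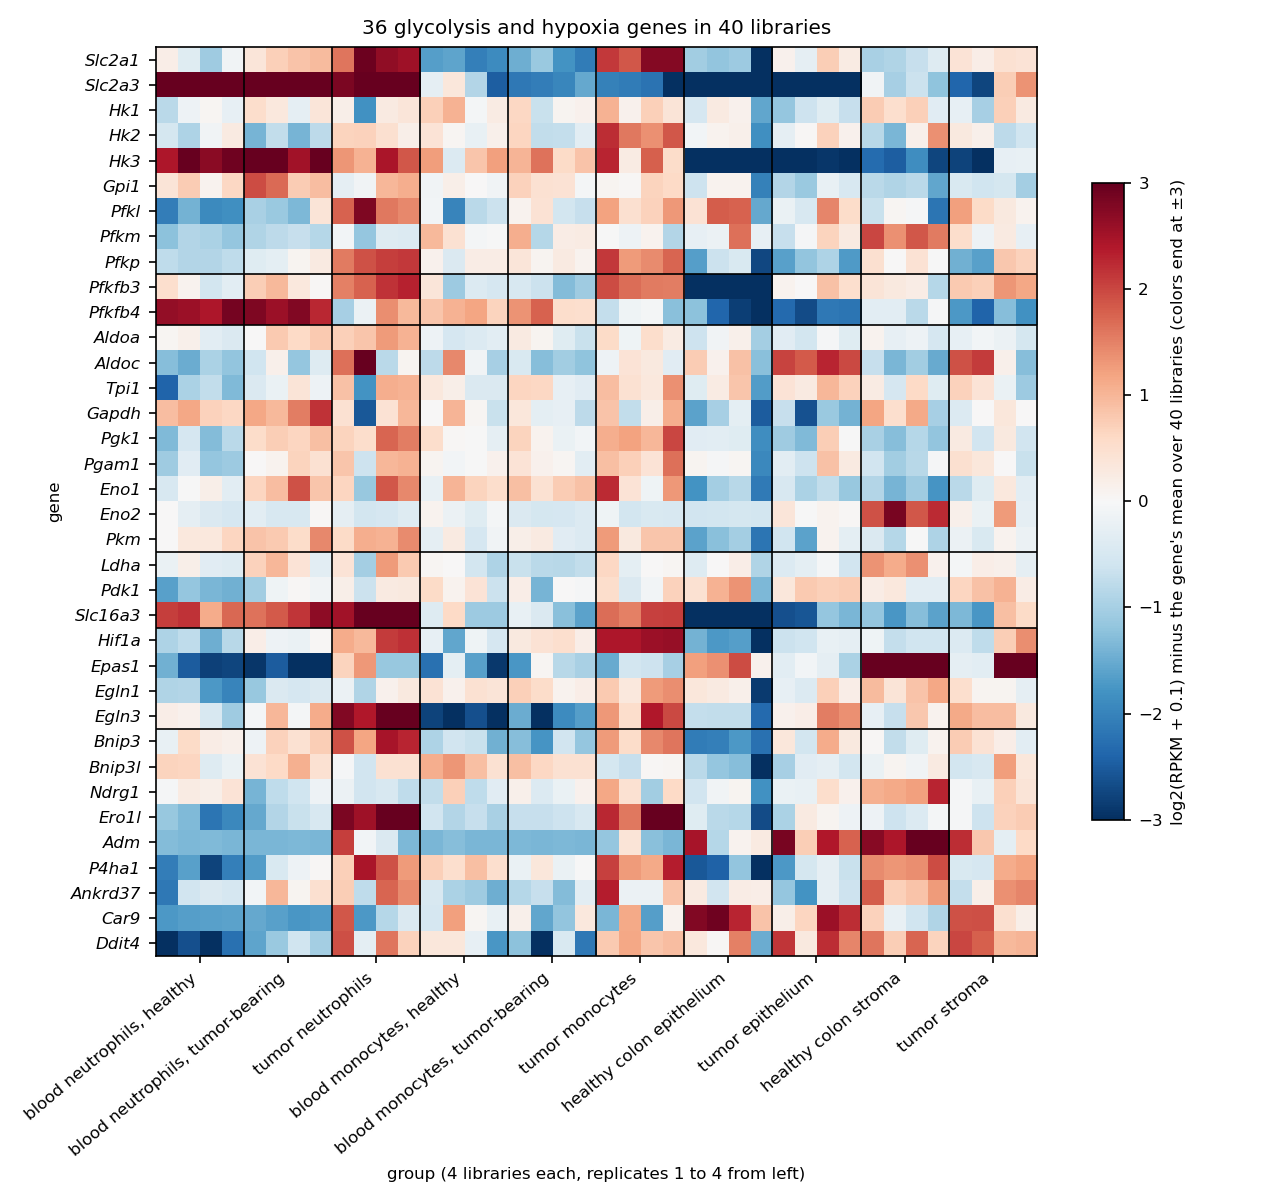
Heat map of the 36 members (rows, ordered by role) in 40 libraries (columns, 4 for each group). Color is log2(RPKM + 0.1) minus the gene's mean over the 40 libraries, with the scale ending at -3 and 3; Ero1l, Slc2a1 and Egln3 are high in all 8 tumor neutrophil and tumor monocyte libraries.

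Tumor neutrophils carried more RNA of the glucose importer Slc2a1, of hexokinase 2, of the phosphofructokinases Pfkl and Pfkp and of both HIF subunit genes than circulating neutrophils of tumor-bearing mice, and less of hexokinase 3 and of the regulator Pfkfb4. Of 33 members tested, 15 passed an adjusted p of 0.05 (edgeR), 13 rose and 2 fell. Across all 13674 genes tested, 17.9% passed, 12.5% higher and 5.39% lower in the tumor. The members' median log2 fold change was 0.63, and that of all genes 0.11. Among uptake and phosphorylation genes 4 of 9 rose and 1 fell, among HIF subunits and hydroxylases 3 of 4 rose, and among HIF targets 4 of 7 tested rose. None of the 8 tested genes from aldolase to pyruvate kinase passed.

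Slc2a1, which brings glucose into the cell, stood at 31.8, 80.3, 65.8 and 60.9 RPKM in the 4 tumor neutrophil libraries and at 13.4, 16.97, 18.7 and 20.04 RPKM in the circulating ones. Every tumor library was above every blood library, and replicate 1 was the lowest of the tumor set. The log2 fold change was 1.96 (SE 0.47, adjusted p = 0.0161, edgeR). Slc2a3, the other main glucose importer of blood cells, stood at 7.91, 30.7, 20.1 and 20.8 RPKM in the tumor and 30.2, 32.8, 47.4 and 35.8 RPKM in blood. The groups overlapped and Slc2a3 did not pass (log2 fold change -0.67, adjusted p = 0.426, edgeR).

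Hk2, which traps glucose as glucose 6-phosphate at the mitochondrial surface, stood at 5.75, 5.87, 5.04 and 4.03 RPKM in tumor neutrophils and at 1.30, 2.11, 1.29 and 2.03 RPKM in circulating ones. The groups did not overlap, and the log2 fold change was 1.74 (SE 0.37, adjusted p = 0.00954, edgeR). Hk3, the hexokinase typical of granulocytes, ran the other way, with 2.81, 2.31, 6.28 and 4.15 RPKM in the tumor and 11.7, 12.3, 6.58 and 14.2 RPKM in blood. It fell by 1.49 on the log2 scale, though the highest tumor library came close to the lowest blood library. Hk1, the hexokinase found in most tissues, stood at 0.882, 0.146, 0.941 and 1.01 RPKM in the tumor and did not pass (adjusted p = 0.58, edgeR). Pfkl and Pfkp, liver and platelet forms of the enzyme that commits sugar to glycolysis, rose by 2.99 (SE 0.66, adjusted p = 0.011, edgeR) and 2.12 (SE 0.37, adjusted p = 0.00343, edgeR) on the log2 scale.

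The bifunctional enzymes Pfkfb3 and Pfkfb4, which set the level of the main activator of phosphofructokinase, moved apart. Pfkfb3, the form that favors synthesis of that activator, stood at 9.13, 10.9, 14.4 and 15.7 RPKM in tumor neutrophils and at 5.26, 6.23, 3.92 and 3.20 RPKM in circulating ones, a log2 fold change of 1.53. Pfkfb4 stood at 0.666, 1.25, 3.94 and 2.89 RPKM in the tumor and at 10.6, 9.04, 10.4 and 7.29 RPKM in blood, a log2 fold change of -2.05 (SE 0.51, adjusted p = 0.0196, edgeR). Neither gene's groups overlapped. Slc16a3, which exports lactate, stood at 10.6, 30.7, 30.3 and 27.0 RPKM in the tumor and at 5.66, 6.53, 8.10 and 11.8 RPKM in blood. It rose (log2 fold change 1.77, SE 0.50, adjusted p = 0.0342, edgeR), with replicate 1 of the tumor below the highest blood library. Ldha, which makes the lactate, was at or under 0.764 RPKM in these 8 libraries, which is not read as low expression. It overlapped between groups and did not pass.

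Among the HIF genes, Hif1a stood at 13.8, 12.7, 27.8 and 29.6 RPKM in tumor neutrophils and at 7.27, 5.76, 5.50 and 6.55 RPKM in circulating ones. It rose by 1.77 on the log2 scale (SE 0.36, adjusted p = 0.00654, edgeR), with no overlap. Epas1, which encodes HIF-2 alpha, had the largest fold change of the members tested. It stood at 1.82, 2.86, 0.448 and 0.449 RPKM in the tumor against 0.0592, 0.114, 0.0319 and 0.0334 RPKM in blood, where 8.80 to 38.1 counts a library lie behind it. All 4 tumor libraries were above all blood libraries and replicates 1 and 2 were the highest (log2 fold change 4.85, SE 0.91, adjusted p = 0.0048, edgeR). Egln3, a hydroxylase that HIF itself induces, stood at 14.9, 11.4, 24.7 and 29.6 RPKM in the tumor and at 2.00, 4.26, 2.00 and 4.60 RPKM in blood. It rose by 2.67 on the log2 scale (SE 0.42, adjusted p = 0.00222, edgeR). Egln1, the main oxygen sensor of the family, did not pass, with 1.07 to 2.58 RPKM in the tumor and 0.888 to 1.52 RPKM in blood.

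Among the HIF targets, Ero1l (chr14:45283087-45318771, minus strand, GRCm38), an oxidase that helps form disulfide bonds in the endoplasmic reticulum, stood at 35.9, 29.8, 40.6 and 46.9 RPKM in the tumor and at 1.67, 2.67, 3.13 and 3.56 RPKM in blood. These groups lay far apart, and the log2 fold change was 3.83 (SE 0.39, adjusted p = 0.000496, edgeR). P4ha1, a subunit of the hydroxylase that matures collagen, rose by 2.47 (SE 0.63, adjusted p = 0.0215, edgeR), and the stress-induced inhibitor of mTORC1 Ddit4 by 2.31 (SE 0.55, adjusted p = 0.0156, edgeR). Ddit4 stood at 5.70, 1.15, 4.55 and 2.35 RPKM in the tumor and at 0.412, 0.602, 0.903 and 0.656 RPKM in blood. Bnip3, a mitochondrial protein of mitophagy and cell death, stood at 2.15, 1.25, 3.20 and 2.83 RPKM against 0.440, 0.870, 0.722 and 0.887 RPKM, a log2 fold change of 1.68. Both genes were higher in every tumor library. Ndrg1, a stress-induced protein that HIF switches on in many cell types, stood at 2.35, 1.75, 1.88 and 1.51 RPKM in the tumor and 0.945, 1.52, 1.73 and 2.36 RPKM in blood, with full overlap, and did not pass.

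The vasodilator gene Adm, the surface carbonic anhydrase gene Car9 and Eno2 were too low for the test. Adm stood at 0.988, 0.144, 0.0894 and 0.00156 RPKM and Car9 at 1.12, 0.00103, 0.0826 and 0.146 RPKM in tumor neutrophils, and no blood library passed 0.0151 RPKM for Car9. For both genes replicate 1 was the highest. In that library the median neutrophil marker stood at 8.77% of its mean in circulating neutrophils, against 45.7% to 63.6% in the other 3, and the 12 epithelial markers summed to 188 RPKM. Over the 4 tumor neutrophil libraries that sum was 13.4 to 188 RPKM, with all 12 markers at a mean of at least 1 RPKM, against 0.681 to 1.65 RPKM in circulating neutrophils. The part of epithelial RNA in the changes was not tested as such. Slc2a1 was higher in every tumor neutrophil library than in any tumor epithelial library (8.49 to 17.3 RPKM), as were Ero1l (2.54 to 6.03 RPKM in the epithelium), Egln3 (2.27 to 6.18), Hif1a (4.04 to 5.45), Pfkfb3 (3.15 to 5.82), Pfkp, Slc16a3, P4ha1 and, by a narrow margin, Bnip3. These levels do not measure how much RNA of other cells a library holds. The other 4 rising members overlapped with the epithelium, where Ddit4 was at 1.79 to 7.05 RPKM, Hk2 at 2.97 to 5.82, Pfkl at 0.714 to 3.07 and Epas1 at 0.520 to 1.03. Fibroblast markers summed to 3.43 to 11.6 RPKM in tumor and 0.364 to 1.11 RPKM in circulating neutrophils. Endothelial markers summed to 0.463 to 5.79 and 0.516 to 0.920 RPKM, macrophage markers to 33.1 to 42.45 and 17.6 to 25.8 RPKM. Monocyte markers summed to 10.5 to 27 and 27.8 to 34.6 RPKM. Epas1 averaged 30.8 RPKM (SD 34.6) in tumor and 62.9 RPKM (SD 33.65) in healthy stroma. The part of these other cells was not tested. The mitochondrial share was 17% to 37.5% in tumor and 9.36% to 16.8% in circulating neutrophils, and with mitochondrial genes left out 15 members passed.

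Without tumor replicate 1, 15 members passed, and without circulating replicate 1, 2 or 3, 9 did each time. The 7 that passed with each library left out were Hk2, Pfkl, Pfkp, Hif1a, Epas1, Egln3 and Ero1l, while Slc2a1 lost its call without circulating replicate 1, 2 or 3 and Slc16a3 passed in 1 of 8 such fits. With healthy blood as the reference 17 members passed, but Hk2 did not (adjusted p = 0.182, edgeR).

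Tumor monocytes carried more RNA of Slc2a1, Hk2, Pfkfb3, Slc16a3, Hif1a and Egln3 than circulating ones, and of Pgk1, Pkm and Aldoc. Of 34 members tested, 15 rose and 1 fell against monocytes in the blood of tumor-bearing mice. Across the 15280 genes tested, 17.1% passed, 10.9% higher and 6.28% lower. The members' median log2 fold change was 1.25, and that of all genes -0.03. By role, 4 of 9 uptake and phosphorylation genes rose, 3 of 8 tested from aldolase to pyruvate kinase, 2 of 4 HIF subunits and hydroxylases, and 4 of 8 tested HIF targets. In all 16 members that passed, the tumor and blood libraries did not overlap. How often this holds among all passing genes was not counted, so it does not set these members apart.

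Slc2a1 had the largest fold change. It stood at 45.0, 37.8, 69.8 and 69.6 RPKM in tumor monocytes and at 3.65, 4.74, 2.88 and 2.32 RPKM in circulating ones, a log2 fold change of 4.30 (SE 0.33, adjusted p = 2.25e-05, edgeR). The lowest tumor library was several times the highest blood library. Slc2a3 was at or under 0.288 RPKM in all 8 libraries and did not pass. Hk2 stood at 17.02, 10.96, 9.41 and 13.3 RPKM in the tumor against 5.68, 2.10, 2.14 and 2.84 RPKM in blood. Replicate 1 was the highest of both groups, and the rise was 2.27 on the log2 scale (SE 0.34, adjusted p = 0.00132, edgeR). Hk3 stood at 5.62, 1.30, 3.93 and 1.63 RPKM in the tumor and at 2.29, 3.51, 1.65 and 2.02 RPKM in blood, and did not pass. Pfkp rose by 1.76 (SE 0.24, adjusted p = 0.000682, edgeR) and Pfkl by 1.40 on the log2 scale.

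Pfkfb3 stood at 12.4, 10.1, 9.37 and 9.19 RPKM in tumor monocytes and at 2.21, 1.94, 1.22 and 1.43 RPKM in circulating ones (log2 fold change 2.86, SE 0.24, adjusted p = 3.70e-05, edgeR). Pfkfb4 stood at 0.828, 1.30, 1.36 and 0.549 RPKM against 3.83, 5.11, 2.11 and 2.08 RPKM, a log2 fold change of -1.43. As in neutrophils, the pair moved in opposite directions. Further down the pathway, the brain-type aldolase gene Aldoc rose by 2.34 on the log2 scale (SE 0.71, adjusted p = 0.0451, edgeR) from a low level, 0.208 against 0.0488 RPKM on average. Pgk1, an ATP-yielding step, rose by 1.52 and the pyruvate kinase gene Pkm by 1.23. Leaving out single libraries in turn, Aldoc kept its call 1 time in 8. The lactate exporter Slc16a3 stood at 5.83, 5.21, 7.59 and 7.75 RPKM in the tumor and at 1.49, 1.29, 0.680 and 0.509 RPKM in blood, a log2 fold change of 3.01 (SE 0.36, adjusted p = 0.000374, edgeR).

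Hif1a was tight within groups, at 34.9, 34.6, 38.1 and 39.2 RPKM in tumor monocytes and 7.85, 8.64, 9.04 and 7.32 RPKM in circulating ones. Its log2 fold change was 2.42 (SE 0.18, adjusted p = 1.75e-05, edgeR). Epas1 was at 0.318 to 0.713 RPKM in the tumor and 0.260 to 1.14 RPKM in blood, with overlap, and did not pass. Egln3 stood at 5.25, 3.05, 11.4 and 8.53 RPKM against 0.676, 0.0892, 0.485 and 0.590 RPKM, and rose by 4.23 on the log2 scale (SE 0.65, adjusted p = 0.0015, edgeR). Ero1l stood at 24.5, 15.1, 45.7 and 42.3 RPKM against 3.08, 3.04, 3.23 and 3.53 RPKM (log2 fold change 3.58, SE 0.37, adjusted p = 0.000131, edgeR). For both, replicates 3 and 4 were the highest tumor libraries and replicate 2 the lowest. Bnip3 stood at 1.34, 0.779, 1.51 and 1.72 RPKM against 0.147, 0.0735, 0.297 and 0.167 RPKM (log2 fold change 3.21, SE 0.57, adjusted p = 0.00326, edgeR). Ddit4 stood at 2.52, 3.32, 2.62 and 2.83 RPKM against 0.554, 0.0169, 1.01 and 0.246 RPKM (log2 fold change 2.88, SE 0.81, adjusted p = 0.0335, edgeR). The spread of Ddit4 lay mostly in the blood libraries. P4ha1 rose by 2.09 on the log2 scale (SE 0.32, adjusted p = 0.00158, edgeR), and Car9 stood at 0.0277, 0.630, 0.00535 and 0.258 RPKM in the tumor and did not pass.

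Of the 16 members, 11 passed with each library left out, and 10 of these also under every alternative setting: Slc2a1, Hk2, Pfkp, Pfkfb3, Slc16a3, Hif1a, Egln3, Bnip3, Ero1l and P4ha1. The epithelial markers summed to 1.98 to 38.8 RPKM in tumor monocytes and 0.615 to 1.03 RPKM in circulating ones, highest in replicate 2. That library had the lowest tumor value of Slc2a1, Egln3, Ero1l and Bnip3 and the highest of Ddit4, Aldoc, Car9 and Adm. The neutrophil markers summed to 85.0 to 130 RPKM and 95.7 to 271 RPKM. Genes induced by tissue dissociation, such as Fos and Egr1, summed to 436 to 833 RPKM in tumor monocytes and 132 to 490 RPKM in circulating ones, and to 635 to 1791 and 361 to 751 RPKM in tumor and circulating neutrophils. Their part was not tested.

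**Figure D2:**
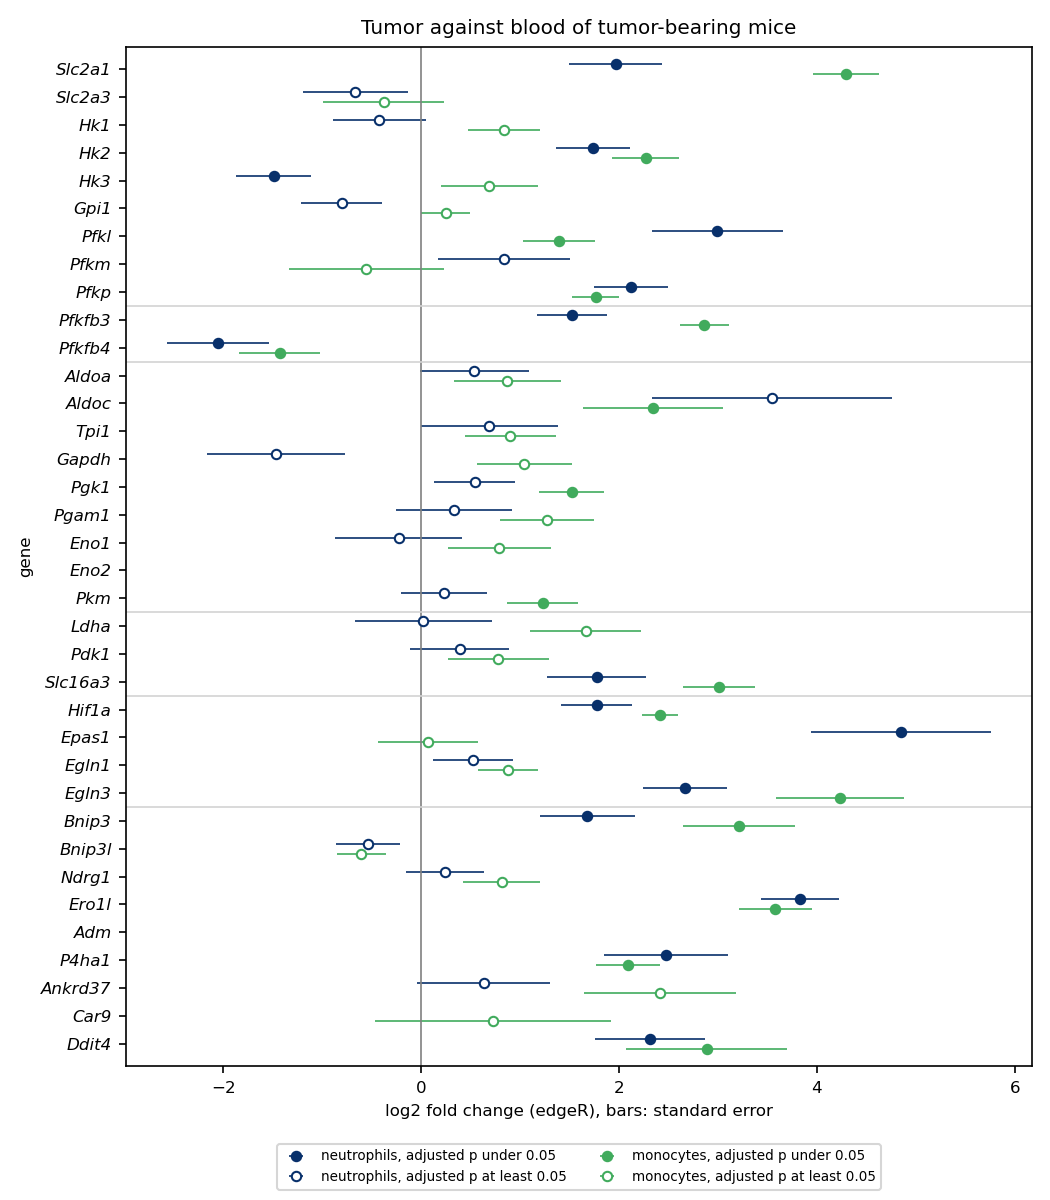
Log2 fold change (edgeR) of each member, tumor against blood of tumor-bearing mice, in neutrophils and monocytes; bars are standard errors, filled points have an adjusted p under 0.05, and gaps are genes too low for the test. Slc2a1 rose by 4.30 in monocytes and 1.96 in neutrophils, and Epas1 by 4.85 in neutrophils.

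The 2 myeloid comparisons share no library, although 3 of the 4 circulating monocyte libraries and 3 of the 4 tumor monocyte libraries carry an animal number that also stands on a neutrophil library of the same site. In both, 12 members rose, 92.3% of the 13 that rose in neutrophils and 80.0% of the 15 in monocytes: Slc2a1, Hk2, Pfkl, Pfkp, Pfkfb3, Slc16a3, Hif1a, Egln3, Bnip3, Ero1l, P4ha1 and Ddit4. Over all genes, 722 rose in both, 42.3% of the 1705 in neutrophils and 43.5% of the 1659 in monocytes. Pfkfb4 fell in both. Within a cell type, 1 of the 4 tumor monocyte libraries and 1 of the 4 circulating neutrophil libraries share an animal number with the other site. The test of the difference between the 2 changes took all libraries as independent and ignored shared animals. When this difference was tested, 2 of 34 members passed, 1 in each direction. Differences that did not pass are not shown to be absent. Across the 17465 genes tested for it, 3.99% passed, 2.73% higher and 1.26% lower in neutrophils. Epas1 rose more in neutrophils by 4.64 on the log2 scale (SE 1.03, adjusted p = 0.0183, edgeR), and Slc2a1 less (difference -2.45, SE 0.57, adjusted p = 0.0228, edgeR). The level of Slc2a1 in the tumor overlapped between the cell types, at 31.8 to 80.3 RPKM in neutrophils and 37.8 to 69.8 RPKM in monocytes, while in blood it did not, at 13.4 to 20.04 RPKM and 2.32 to 4.74 RPKM. The count dropped to 1 without circulating monocyte replicate 1, 3 or 4 or tumor monocyte replicate 4, where Slc2a1 was lost (adjusted p up to 0.0521, edgeR), and was 4 without tumor neutrophil replicate 2. Epas1 passed with each library left out but not in limma-voom or in limma on log2(RPKM + 1) (adjusted p up to 0.248, limma). The other 32 differences ranged from -2.62 to 4.66.

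**Figure D3:**
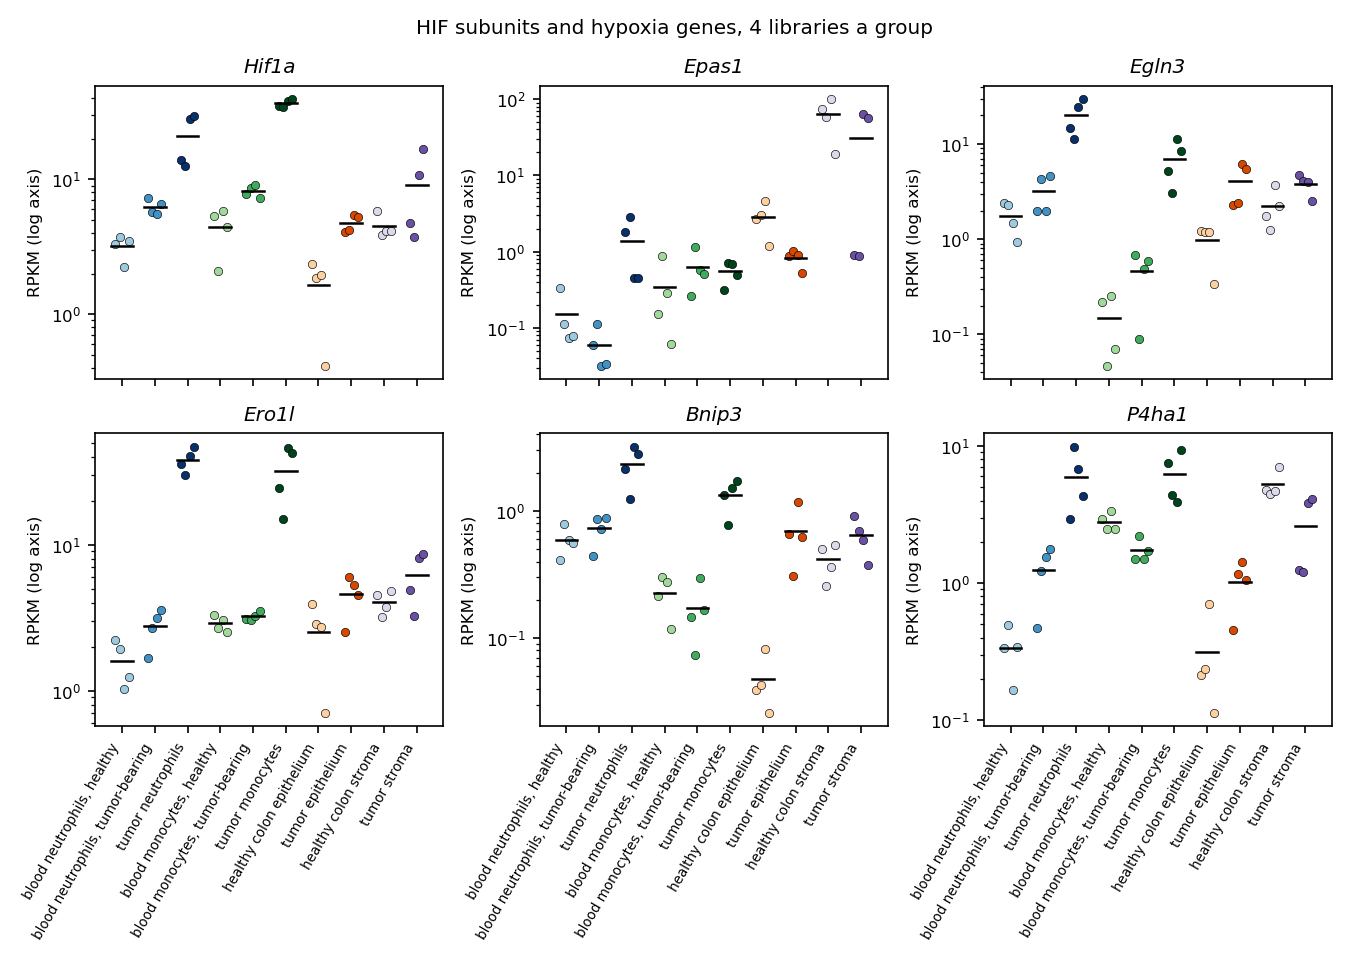
RPKM of Hif1a, Epas1, Egln3, Ero1l, Bnip3 and P4ha1 in each of the 40 libraries by group, on a log axis; points are libraries and short bars are group means. Ero1l lies at 29.8 to 46.9 RPKM in tumor neutrophils and 15.1 to 45.7 RPKM in tumor monocytes, and Epas1 is highest in healthy stroma.

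Neutrophils in the blood of tumor-bearing mice had more RNA of 10 of 32 members tested than neutrophils of healthy mice, and none fell. Across the 13360 genes tested, 6.52% passed, 3.59% higher and 2.93% lower. The members' median log2 fold change was 0.89 and that of all genes -0.01. Here 3 of 8 tested genes from aldolase to pyruvate kinase rose: Pgk1, the mutase gene Pgam1 and the enolase gene Eno1. Pgk1 stood at 2.05, 2.33, 2.20 and 2.65 RPKM in tumor-bearing mice and at 0.484, 0.928, 0.493 and 0.730 RPKM in healthy ones (log2 fold change 1.86, SE 0.27, adjusted p = 0.0049, edgeR). Hif1a stood at 7.27, 5.76, 5.50 and 6.55 RPKM against 3.30, 3.72, 2.25 and 3.51 RPKM (log2 fold change 1.02, SE 0.17, adjusted p = 0.00964, edgeR). Slc2a1 stood at 13.4 to 20.04 against 4.90 to 11.9 RPKM (log2 fold change 1.06, SE 0.27, adjusted p = 0.0424, edgeR). None of these 3 genes overlapped between groups.

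The largest change was in Ddit4, at 0.412, 0.602, 0.903 and 0.656 RPKM against 0.0386, 0.147, 0.0652 and 0.222 RPKM (log2 fold change 2.50, SE 0.60, adjusted p = 0.0358, edgeR). P4ha1 rose by 2.00 (SE 0.45, adjusted p = 0.0268, edgeR), with overlap, and Pdk1, the kinase that keeps pyruvate out of mitochondria, by 1.79 (SE 0.40, adjusted p = 0.0259, edgeR). Pgam1 rose by 1.61 (SE 0.40, adjusted p = 0.0401, edgeR), Eno1 by 1.58 (SE 0.39, adjusted p = 0.0404, edgeR) and Pfkp by 0.85 (SE 0.22, adjusted p = 0.0491, edgeR). Gpi1, the isomerase after hexokinase, rose by 0.95 (SE 0.24, adjusted p = 0.0424, edgeR), with overlap. Most of these calls lay near the threshold. Without any 1 of the 8 libraries the count fell to between 2 and 5: 4, 2, 5 and 3 without circulating replicates 1 to 4 of the tumor-bearing mice, and 3, 4, 2 and 3 without those of the healthy mice. Pgk1 and Hif1a passed in all 8. The neutrophil markers summed to 15760 to 20420 RPKM in tumor-bearing and 3884 to 8799 RPKM in healthy blood, and the part of this in the changes was not tested.

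In circulating monocytes no member of 34 passed in edgeR, and DESeq2 called 1, Hif1a. Across the 15313 genes tested, 0.216% passed, 0.0914% higher and 0.124% lower. Hif1a stood at 7.32 to 9.04 RPKM in tumor-bearing and 2.09 to 5.78 RPKM in healthy mice, with no overlap (log2 fold change 1.01, SE 0.28, adjusted p = 0.208, edgeR). Slc2a1 stood at 2.32 to 4.74 RPKM and 2.42 to 3.36 RPKM. The log2 fold changes of the 34 members ranged from -2.24 to 1.76, and whether neutrophils and monocytes differed in this change was not tested.

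In tumor epithelium the regulator Pfkfb3 and the lactate exporter Slc16a3 had the largest rises over healthy colon epithelium, and Epas1 and Ankrd37 the largest falls. Of 34 members tested, 8 rose and 4 fell. Across the 16085 genes tested, 22.6% passed, 10.6% higher and 12% lower. The members' median log2 fold change was -0.03, and that of all genes -0.01. On the RPKM scale, with limma on log2(RPKM + 1), the split was 8 and 1, and with a pseudocount of 0.1 it was 6 and 0. By role, 1 of 7 tested uptake and phosphorylation genes rose and 2 fell, 2 of 9 from aldolase to pyruvate kinase rose, 2 of 4 HIF subunits and hydroxylases rose and 1 fell, and 1 of 9 HIF targets rose and 1 fell.

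Pfkfb3 stood at 3.33, 3.15, 5.82 and 4.44 RPKM in tumor epithelium and at 0.239, 0.0381, 0.0259 and 0.0700 RPKM in healthy epithelium. The log2 fold change was 4.45 (SE 0.76, adjusted p = 0.00194, edgeR), and the call held under every alternative and with each library left out. Slc16a3 stood at 0.201, 0.217, 0.735 and 0.617 RPKM in the tumor and at 0.0162, 0.000154, 0.00376 and 0.00951 RPKM in healthy colon, where at most 4.96 counts a library lie behind it. It had the largest fitted fold change of the comparison (log2 4.67, SE 0.99, adjusted p = 0.00643, edgeR), whose size rests on those few counts. Bnip3 stood at 0.658, 0.307, 1.18 and 0.626 RPKM against 0.0393, 0.0430, 0.0819 and 0.0257 RPKM (log2 fold change 3.07, SE 0.56, adjusted p = 0.00282, edgeR). Eno2, the neuron-type enolase gene, had 13.7 to 25.2 counts a tumor library and at most 0.787 counts a healthy one (adjusted p = 0.0042, edgeR), and its fitted fold change is not given because it depends on the prior count. Aldoc stood at 1.08, 0.932, 1.31 and 1.05 RPKM against 0.393, 0.214, 0.429 and 0.0219 RPKM (log2 fold change 1.67, SE 0.46, adjusted p = 0.0257, edgeR). For none of these 5 genes did the groups overlap.

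Slc2a1 stood at 11.3, 8.49, 17.3 and 12.2 RPKM in tumor epithelium and at 4.96, 4.46, 4.78 and 1.06 RPKM in healthy epithelium, with replicate 4 the lowest (log2 fold change 1.10, SE 0.19, adjusted p = 0.00213, edgeR). Hif1a stood at 4.04, 4.18, 5.45 and 5.29 RPKM against 2.34, 1.85, 1.95 and 0.414 RPKM (log2 fold change 0.99, SE 0.22, adjusted p = 0.00777, edgeR). Epas1 ran the other way, at 0.867, 1.03, 0.900 and 0.520 RPKM against 2.72, 3.00, 4.59 and 1.203 RPKM (log2 fold change -2.42, SE 0.33, adjusted p = 0.000567, edgeR). The 2 HIF subunit genes thus moved in opposite directions, each without overlap. Egln3 stood at 2.27, 2.39, 6.18 and 5.50 RPKM against 1.23, 1.196, 1.196 and 0.335 RPKM (log2 fold change 1.36, SE 0.30, adjusted p = 0.00843, edgeR). Ankrd37, a small ankyrin-repeat protein, fell by 2.43 (SE 0.75, adjusted p = 0.0413, edgeR), Hk1 by 1.07 (SE 0.25, adjusted p = 0.0103, edgeR) and Gpi1 by 0.82 (SE 0.17, adjusted p = 0.00597, edgeR). In these 3 the RPKM of the groups overlapped. Car9 stood at 0.277, 0.420, 1.86 and 1.44 RPKM in the tumor and 2.19, 2.43, 1.52 and 0.5004 RPKM in healthy colon, with overlap, and did not pass; Hk2 and Ldha did not pass either.

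Healthy epithelial replicate 4 was lowest in Slc2a1, Hif1a, Epas1 and Egln3 and had the 83.9% mitochondrial share, and without it 11 members passed. With any 1 of the 8 libraries left out the count was 10 to 14. Dissociation genes summed to 459 to 882 RPKM in tumor and 76.1 to 489 RPKM in healthy epithelium. Fibroblast markers summed to 9.85 to 25.2 and 0.478 to 3.94 RPKM, endothelial markers to 4.58 to 5.13 and 0.282 to 0.553 RPKM, and monocyte markers to 10.05 to 27.7 and 1.44 to 3.49 RPKM. The part of these was not tested.

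In stroma 6 of 36 members passed: Slc2a1, Pfkfb3, Pgk1 and Eno1 rose, and Pfkfb4 and the muscle-type phosphofructokinase gene Pfkm fell. Across the 19081 genes tested, 9.55% passed, 3.99% higher and 5.56% lower. The members' median log2 fold change was 0.71, and that of all genes 0.03. With limma on log2(RPKM + 1) the split was 1 higher and 4 lower, and with a pseudocount of 0.1 it was 1 and 5. Slc2a1 stood at 13.7, 11.8, 14.1 and 13.7 RPKM in tumor stroma and at 5.19, 5.50, 6.30 and 7.83 RPKM in healthy stroma. It rose by 1.46 on the log2 scale (SE 0.22, adjusted p = 0.00742, edgeR), and the call held under every alternative and with each library left out. Pfkfb3 stood at 5.47, 5.14, 7.96 and 7.05 RPKM against 4.11, 3.85, 3.65 and 1.69 RPKM (log2 fold change 1.30, SE 0.30, adjusted p = 0.0293, edgeR). Eno1 rose by 1.90 (SE 0.50, adjusted p = 0.0445, edgeR) and Pgk1 by 1.45 (SE 0.34, adjusted p = 0.0303, edgeR). Pfkfb4 fell by 1.34 (SE 0.35, adjusted p = 0.0457, edgeR) and Pfkm by 1.71 (SE 0.40, adjusted p = 0.0318, edgeR). None of the 6 overlapped between groups. The share of all passing genes without overlap was not counted, so this does not set the 6 apart.

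The tumor stroma libraries were of different kinds. Epas1 stood at 0.893 and 0.871 RPKM in tumor replicates 1 and 2 but at 64.1 and 57.2 RPKM in replicates 3 and 4, and at 74.7, 58.3, 99.4 and 19.3 RPKM in healthy stroma. The median endothelial marker stood at 2.23% and 2.92% of its mean over tumor stroma in replicates 1 and 2, against 192% and 204% in replicates 3 and 4. Hif1a split in the same way, at 4.77, 3.72, 10.8 and 16.9 RPKM in the tumor. Fibroblast markers summed to 429 to 2267 RPKM in healthy and 24.6 to 35.4 RPKM in tumor stroma, and epithelial markers to 6.44 to 23.6 and 35.4 to 249 RPKM. The tumor stroma level of Slc2a1 lay within the 8.49 to 17.3 RPKM of tumor epithelium, and the part of these other cells was not tested. Without tumor replicates 1 and 2, 7 members passed, and with 1 library left out the count was 1 to 5: 2 without tumor replicate 2 or 3, 1 without healthy replicate 1 or 2, 2 without healthy replicate 3 and 3 without healthy replicate 4.

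**Figure D4:**
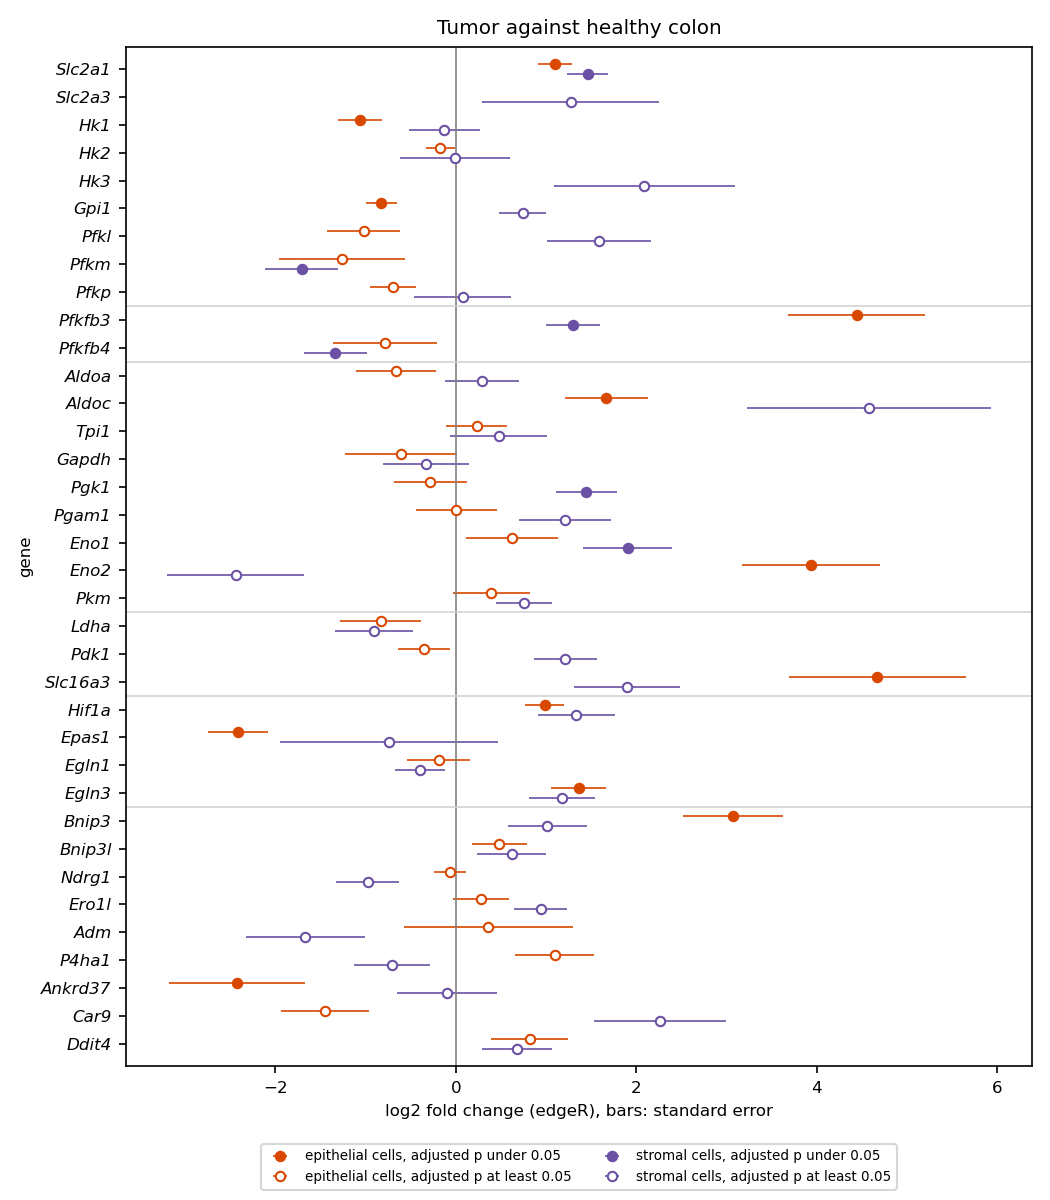
Log2 fold change (edgeR) of each member, tumor against healthy colon, in epithelial and stromal cells; bars are standard errors, filled points have an adjusted p under 0.05, and gaps are genes too low for the test. Slc2a1 and Pfkfb3 are filled and above 0 in both.

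Across the 4 tumor comparisons, Slc2a1 and Pfkfb3 rose in all 4, and Slc16a3, Hif1a, Egln3 and Bnip3 in 3, missing in stroma. The references differ, blood for the myeloid cells and healthy colon for epithelium and stroma. The shares of all genes that rose in 4, 3, 2 or 1 of these comparisons were not counted. Another 8 members rose in 2 and 4 rose in 1, of which Epas1 in neutrophils. The 18 that rose in none included Slc2a3, Hk1, Hk3, Ldha, Ndrg1, Adm and Car9. Among these, Slc2a3 and Hk3 were too low for the test in epithelium, Adm in both myeloid comparisons and Car9 in neutrophils. The epithelial and stromal comparisons shared 2 rising members, 25% of 8 and 50% of 4, and both are Slc2a1 and Pfkfb3. The epithelial comparison shared 6 rising members with neutrophils (75.0% of its 8, 46.2% of 13) and 7 with monocytes (87.5% of 8, 46.7% of 15). Over all genes, the epithelial comparison shared 14.4% of its rising genes with stroma, 23.5% with neutrophils and 20.1% with monocytes. These comparisons share no library, but 3 of the 4 tumor epithelial libraries carry an animal number that also stands on a tumor neutrophil library. Pfkfb4 fell in neutrophils, monocytes and stroma.

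In healthy blood, neutrophils and monocytes differed in 55.9% of the members tested, near the 50.8% of all genes. Of 34 members tested, 13 were higher and 6 lower in neutrophils, while across the 15033 genes tested 50.8% passed, 24.2% higher and 26.6% lower. With limma on log2(RPKM + 1), and also with a pseudocount of 0.1, the split was 7 and 11, whereas RLE size factors and limma-voom kept 13 and 6. Slc2a3 stood at 25.6, 29.3, 19.9 and 23.2 RPKM in neutrophils and at 0.841, 1.33, 0.520 and 0.105 RPKM in monocytes (log2 fold change 5.92, SE 0.65, adjusted p = 8.34e-05, edgeR). Slc2a1 was higher in neutrophils too, at 4.90 to 11.9 against 2.42 to 3.36 RPKM (log2 fold change 2.32, SE 0.26, adjusted p = 9.40e-05, edgeR). Neither overlapped. Hk3 (log2 fold change 2.79, SE 0.37, adjusted p = 0.000232, edgeR), Pfkfb4 (2.51, SE 0.20, adjusted p = 1.40e-05), Slc16a3 (2.97, SE 0.42, adjusted p = 0.000355) and Egln3 (4.36, SE 0.58, adjusted p = 0.000235) were higher in every neutrophil library than in any monocyte library. In the other direction, Car9 (-5.11, SE 0.84, adjusted p = 0.000775, edgeR), Pfkm (-2.77, SE 0.75, adjusted p = 0.0119), Ddit4 (-2.66, SE 0.69, adjusted p = 0.00989) and P4ha1 (-2.33, SE 0.30, adjusted p = 0.000186) were lower, also without overlap. The fold for Car9 rests on at most 1.38 counts a neutrophil library. Of the 4 healthy monocyte libraries, 2 carry an animal number that also stands on a healthy neutrophil library. The test took all libraries as independent.

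In healthy colon, epithelium and stroma differed in 16 of 36 members, 6 higher and 10 lower in the epithelium, while across the 18468 genes tested 38.1% passed, 15.6% higher and 22.5% lower. With limma the split was 2 and 17 at a pseudocount of 1 and 2 and 16 at 0.1. Replicate 4 of the epithelium and replicate 4 of the stroma carry the same title stem without an animal number. Whether they share an animal is not known, and the test took all libraries as independent. Car9 had the largest fold towards the epithelium, at 2.19, 2.43, 1.52 and 0.5004 RPKM against 0.436, 0.186, 0.122 and 0.0770 RPKM in stroma, with no overlap (log2 fold change 3.89, SE 0.57, adjusted p = 0.000765, edgeR). Epas1 was lower in epithelium, at 1.203 to 4.59 against 19.3 to 99.4 RPKM (log2 fold change -3.47, SE 0.49, adjusted p = 0.000625, edgeR). Pfkfb3 was lower by 3.80 on the log2 scale in epithelium, Slc16a3 by 4.85, P4ha1 by 3.18, Bnip3 by 2.07 and Ndrg1 by 1.12, all without overlap. Ndrg1 stood at 5.71, 5.93, 6.38 and 13.4 RPKM in stroma, with replicate 4 far above the others, and at 0.682 to 2.80 RPKM in epithelium. Adm, at 1.27 to 2.75 RPKM in stroma and 0.0411 to 1.31 RPKM in epithelium, did not pass.

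Within pairs of related genes, the share of each form can be read inside 1 library. Slc2a1 made up 28.3% to 35.9% of the summed RPKM of Slc2a1 and Slc2a3 in circulating neutrophils of tumor-bearing mice and 72.3% to 80.1% in tumor neutrophils. In monocytes it was 93.8% in blood and 99.7% in the tumor on average. Among Hk1, Hk2 and Hk3, Hk2 held 9.20% to 15.2% in circulating and 41.1% to 70.6% in tumor neutrophils, while the mean share of Hk3 went from 80.6% to 38.5%. In monocytes the mean share of Hk2 was 48.2% in blood and 75.3% in the tumor. Pfkfb3 went from 32.9% to 86.5% of the summed RPKM of Pfkfb3 and Pfkfb4 in neutrophils, from 35.4% to 91.0% in monocytes, from 30.4% to 95.2% in epithelium and from 73.1% to 94.9% in stroma. In each of the 4 cell types the mean share was thus higher in the tumor. Egln3 went from 69.0% to 91.0% of the summed RPKM of Egln1 and Egln3 in neutrophils, from 14.1% to 60.4% in monocytes, from 40.01% to 62.8% in epithelium and from 35.3% to 62.5% in stroma. Epas1 held 65.1% of the summed RPKM of Epas1 and Hif1a in healthy and 15.2% in tumor epithelium. These shares are descriptions and were not tested.

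**Figure D5:**
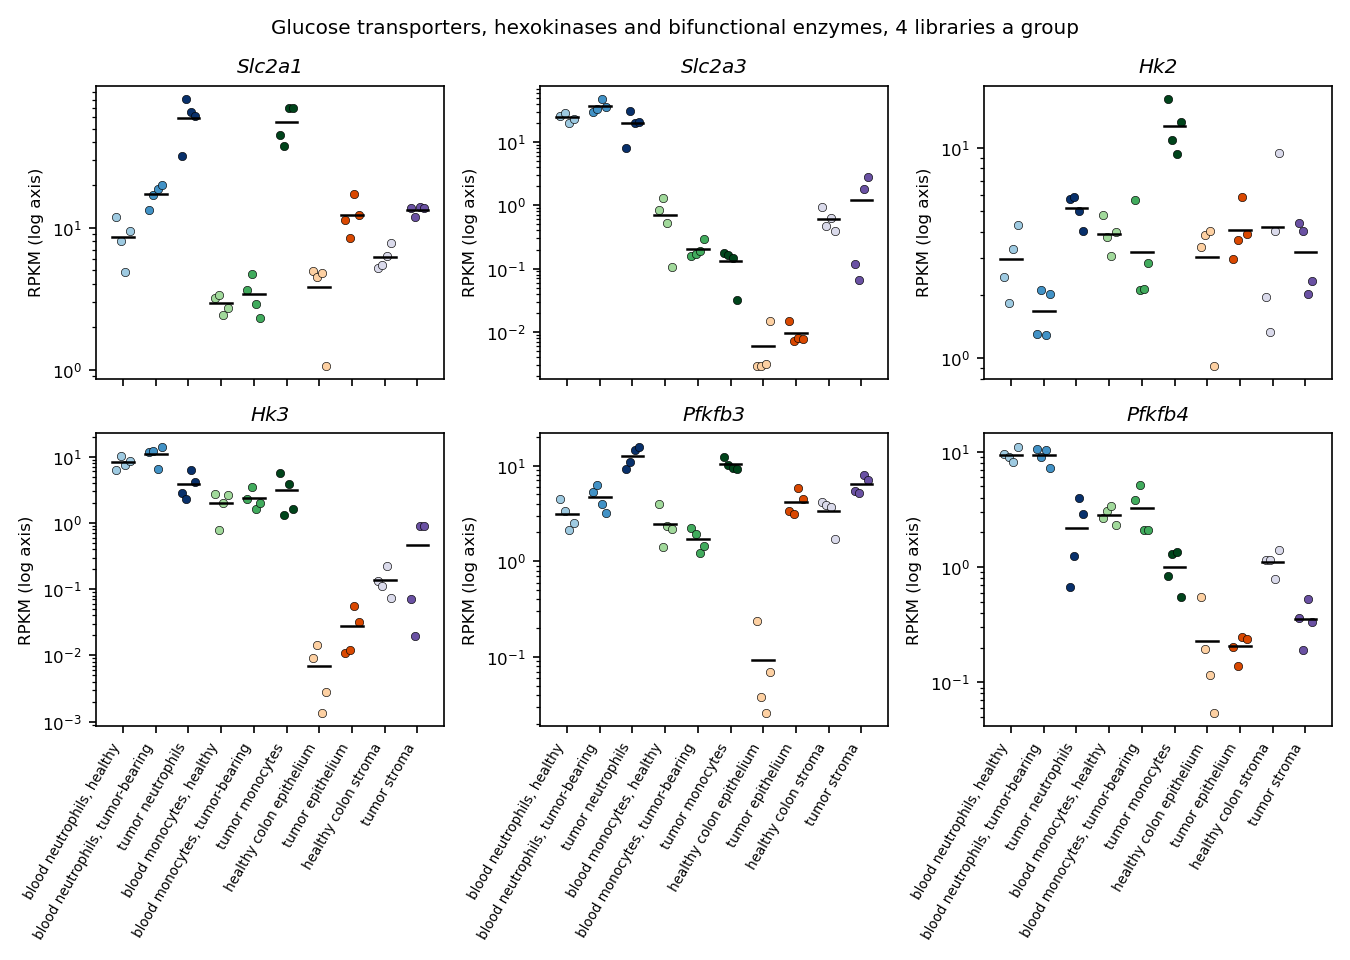
RPKM of Slc2a1, Slc2a3, Hk2, Hk3, Pfkfb3 and Pfkfb4 in each of the 40 libraries by group, on a log axis; points are libraries and short bars are group means. In neutrophils Slc2a1, Hk2 and Pfkfb3 are higher and Hk3 and Pfkfb4 lower in the tumor than in blood of tumor-bearing mice.

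Across the 10 groups, 10 members had their highest mean in tumor neutrophils, 9 in tumor monocytes and 7 in healthy stroma. The shares of all genes highest in these groups were not counted, and for most members the highest group overlapped with the next. The scale of RPKM relative to a library's total count also differed. It ran from 0.635 in a library of healthy blood neutrophils to 1.54 in 1 of healthy epithelium. Slc2a1 was highest in tumor neutrophils (59.7 RPKM ± 20.4, SD, n = 4) and tumor monocytes (55.5 RPKM ± 16.6, SD, n = 4), which overlapped, and both were above circulating neutrophils of tumor-bearing mice (17.3 RPKM ± 2.87, SD, n = 4) without overlap. It was lowest in healthy blood monocytes (2.93 RPKM ± 0.440, SD, n = 4), which overlapped with monocytes in the blood of tumor-bearing mice (3.40 RPKM ± 1.05, SD, n = 4).

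In a wider list of 71 further genes of the same pathways, 13 of 53 tested rose and 2 fell in tumor neutrophils. The largest among those well above the floor were Bhlhe40, a transcriptional repressor that HIF induces, at 53.5 against 0.898 RPKM (log2 fold change 5.94, SE 0.60, adjusted p = 0.000507, edgeR), and Pdk4, Tfrc, Rora, Vegfa and Bsg, which rose by 5.52, 4.89, 4.16, 2.90 and 2.43. In monocytes 16 of 56 rose and 3 fell. Vegfa, the main angiogenic growth factor, stood at 39.5 RPKM in the tumor and 0.156 RPKM in blood (log2 fold change 8.23, SE 0.92, adjusted p = 0.000229, edgeR). Bhlhe40 rose by 4.42, the lactate transporter gene Slc16a1 by 3.72 and the transferrin receptor gene Tfrc by 3.07, and Pdk2 fell by 3.87. Of the 34 hypoxia genes in this list, 10 of 22 tested rose in neutrophils and 13 of 26 in monocytes, and none fell in either, beside the 12.5% and 10.9% of all genes that rose. Of the 37 others, 3 of 31 rose and 2 fell in neutrophils, and 3 of 30 rose and 3 fell in monocytes, shares near those of all genes. In the test of the difference between cell types 4 of 64 passed, all smaller in neutrophils, with Vegfa at -5.46, Mxi1 at -3.79 and Pdk3 at -2.03.

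In tumor epithelium 10 of 67 of this wider list rose and 17 fell, against 10.6% and 12% of all genes, among them Selenbp1 (-6.07), Pck1, which makes glucose from smaller precursors (-4.92), and the carbonic anhydrase gene Car12 (-3.88). In stroma 3 of 67 rose and 8 fell, against 3.99% and 5.56% of all genes, led by the collagen-modifying genes Loxl2 (-3.60), Plod2 (-3.35) and Lox (-3.16), which moved with the fibroblast markers given above; their part was not tested. In circulating neutrophils 4 of 48 rose, against 3.59% of all genes, G6pdx (1.67) and Tkt (1.38) of the pentose phosphate pathway, Nfil3 (1.24) and Pgm2 (1.08), and in circulating monocytes 1 of 50 fell, Eno3 (-2.15). In healthy blood 9 of 50 were higher and 14 lower in neutrophils, shares near or under the 24.2% and 26.6% of all genes, with Vegfa highest by fold (5.93), and in healthy colon 28 of 67 were higher and 15 lower in epithelium, against 15.6% and 22.5% of all genes, with Plod2 (-8.55) and Lox (-8.54) lowest.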

How the data were processed

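The authors sorted cells by flow cytometry, made amplified cDNA from total RNA (the molecule label reads polyA RNA), aligned reads to mm10 with Bowtie2 and deposited expected counts per gene (99.6% of nonzero values are not whole) and RPKM values for 45706 genes. The annotation release and the treatment of reads with several matches are not given in the sources used here. Expected counts were rounded and tested with edgeR 4.0.16 (R 4.3.3; TMM, filterByExpr, quasi-likelihood F-test) on the libraries of each comparison, with Benjamini-Hochberg adjustment over all genes tested and a threshold of 0.05. Titles do not give a separate animal for every library, so p-values measure the spread between libraries. The members and gene lists were chosen with earlier results of these data known. Full statistics were given for at most 12 passing members a comparison, largest fold change first. Promoter windows came from RefSeq (GRCm38.p6), gene positions from GENCODE on GRCm38. Alternatives used limma 3.58.1 (voom, or log2(RPKM + 1) and log2(RPKM + 0.1)), DESeq2 1.42.0, other filters and samples; the scripts were tested on simulated data. Some genes are not reported here.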

Additional observations from a re-analysis of the deposited data

Results flagged for a closer look

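Among the members shown by library, 190 member and group pairs were checked for a library far from the other 3, of which chance sets apart about 1 in 20, and 14 were set apart. In healthy epithelium, replicate 4 was low in Slc2a1 (1.06 RPKM) and Egln3 (0.335 RPKM) and high in Slc2a3 (0.0147 RPKM), and replicate 1 was high in Adm (1.31 RPKM). In tumor epithelium, replicate 1 was high in Slc2a3 (0.0149 RPKM). In tumor neutrophils, replicate 1 was high in Adm (0.988 RPKM) and Car9 (1.12 RPKM), and replicate 2 was low in Hk1 (0.146 RPKM). In healthy stroma, replicate 1 was high in Hif1a (5.78 RPKM) and replicate 4 in Ndrg1 (13.4 RPKM). Epas1 was high in replicate 1 of healthy circulating neutrophils (0.339 RPKM). Adm was set apart in replicate 3 of circulating neutrophils of tumor-bearing mice (0.000542 RPKM), replicate 2 of healthy circulating monocytes (0.00637 RPKM) and replicate 2 of tumor monocytes (0.235 RPKM), and the first pair of these rest on under 1 count.

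Neutrophils and monocytes differed in their tumor against blood change for Slc2a1 (difference in log2 fold change -2.45) and Epas1 (4.64), both by a test of the difference itself in edgeR. Epas1 was not called by limma-voom or by limma on log2(RPKM + 1), and Slc2a1 was not called without circulating monocyte replicate 1, 3 or 4 or tumor monocyte replicate 4.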

How the results depend on the processing

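The 140 gene-level results followed here had all passed in the main fit. Over their 2895 alternative values, 2437 kept direction and call, 458 kept direction only, and none changed sign. The alternatives reuse most of the same libraries, so a change of sign was unlikely from the start. Members passing in each comparison moved by over 1.5 times as follows. With limma on log2(RPKM + 1) and no filter they were 6 of 15 in tumor neutrophils, 0 of 10 in circulating neutrophils, 3 of 12 in epithelium, 3 of 6 in stroma and 1 of 2 for the difference between cell types. In circulating neutrophils limma-voom gave 6, no filter 4, a log2 fold change above 1.5 as well 6, the fit of all 40 libraries 5, and limma on log2(RPKM + 1) or log2(RPKM + 0.1) 5. DESeq2 gave 1 in circulating monocytes in place of 0, 17 in stroma and 5 for the difference, where limma-voom and limma on log2(RPKM + 1) gave 1. The fold threshold left 7 in epithelium, 2 in stroma and 11 of 19 in healthy blood, limma on log2(RPKM + 0.1) left 6 in epithelium, and no filter left 2 in stroma. The cause was not tested.

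With 1 library left out, the count for tumor neutrophils lay between 9 and 15, for tumor monocytes between 11 and 16, for circulating neutrophils between 2 and 5, and it was 0 throughout for circulating monocytes. It was 10 to 14 in epithelium, 1 to 5 in stroma, 16 to 20 in healthy blood, 13 to 18 in healthy colon and 1 to 4 for the difference.

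Replicate numbers follow the order of deposit and not the animals. Correlations of same-numbered deviations ran from -0.241 to 0.211, and in no comparison were all above 0.1. Neither these correlations nor a block on replicate number could reliably show or remove pairing by animal. Such pairing was not tested. With the replicate block, counts were 10 in tumor neutrophils, 13 in tumor monocytes, 4 in circulating neutrophils, 0 in circulating monocytes, 11 in epithelium, 1 in stroma, 18 in healthy blood, 16 in healthy colon and 2 for the difference.

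Adding the counts of near-identical copies to each member, an alternative chosen after seeing the data, left every count as it was. The median of all genes moved by over 0.1 (log2) in limma on log2(RPKM + 0.1) in epithelium (0.57), stroma (-0.30), healthy blood (-0.63), healthy colon (-0.92) and monocytes (-0.27), with 0.19, -0.12, -0.26 and -0.33 for the first 4 at a pseudocount of 1, and in neutrophils in limma-voom (-0.16) and with the block (-0.11), and folds there are relative to it. Low members (Adm, Car9, Eno2, Aldoc, Slc16a3 in epithelium) rest on few counts.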
